A study of Mus musculus with 41 samples.

Results

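The data described here are the bisulfite sequencing (BS-seq) profiles of the Il4 locus in wild-type (WT) mouse Th2 cells after a second cycle of stimulation, set against those after a first cycle. The members are the BS-seq samples labelled wild type from a pair of mouse lines, named here the TET line and the TDG line after the genes deleted in the mutant cells that accompany them. They number 9 of the 41 samples of the series and come from 8 of its 34 libraries, with 2 libraries per line and cycle. Replicates 2 and 3 of first-cycle cells of the TDG line carry the name of a single library and were taken as 2 runs of it, with their reads added and their levels averaged.

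All 4 groups are C57BL/6 T cells from spleen and lymph nodes labelled wild type, with no treatment named. The study's methods describe adult mice and naïve CD4+ T cells sorted as CD25-negative, CD62L-high and CD44-low. In those methods Cre-expressing and control mice alike received tamoxifen, and CreERT2 deletes floxed Tet1, Tet2 and Tet3 in the TET line and floxed Tdg in the TDG line. The lines carry different Cre reporters at Rosa26 (EYFP in the TET line, H2B-EGFP/GPI-mCherry in the TDG line), and cells of reporter mice were also sorted for EYFP or EGFP. Neither the labels nor the methods say which of these alleles the WT cells carried, or whether a replicate is 1 animal or a pool, so the errors below are the spread between libraries. In the first cycle, cells were activated for 2 days through plate-bound antibodies to CD3 and CD28 (1 μg/ml) with 1000 U/ml IL-4 and antibody to IFN-γ (1 μg/ml), and then expanded with IL-2 at 20 U/ml (3 days by the labels, a day longer by the methods). For the second cycle, first-cycle cells of 6 days were kept without cytokine for 1 day, activated again in the same way for 1 day and expanded during 4 days with IL-2 at 20 U/ml. The cycles thus differ in number of stimulations, length of stimulation, rest and days in culture, which cannot be told apart in these data.

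Il4 encodes interleukin-4, the signature cytokine of Th2 cells, and its locus loses DNA methylation as naïve CD4+ T cells turn into Th2 cells. TET enzymes oxidise 5-methylcytosine (5mC) to 5-hydroxymethylcytosine (5hmC) and further to 5fC and 5caC, which TDG can excise. The maintenance methyltransferase DNMT1 does not recognise CpGs with an oxidised base on the old strand, so these lose methylation when cells divide. Bisulfite converts unmodified cytosine, 5fC and 5caC so that they are read as T, whereas 5mC and 5hmC are both read as C.

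The level used throughout is the percentage of reads with C among reads with C or T at a CpG, which is the sum of 5mC and 5hmC, and differences between levels are given in percentage points. The locus has 64 measured CpGs, numbered along the direction of Il4 transcription, all on the minus strand of mouse chromosome 11 (build mm9, positions counted from 1). CpGs 1 to 17 lie in CNS1, a conserved non-coding sequence 5′ of the gene (chr11:53440236-53440800), and CpGs 18 to 21 in the promoter (chr11:53432389-53432583). CpGs 22 to 28 lie in exon 1 (chr11:53431960-53432290), where CpGs 22 and 23 are in the 5′ UTR and the other 5 are coding. CpGs 29 to 37 lie in intron 1 and exon 2 (chr11:53431630-53431948), CpGs 38 to 42 in intron 2, in the 3′ region of the DNase-hypersensitive site HSII (chr11:53430150-53430347), and CpGs 43 to 47 in exon 3 (chr11:53427375-53427537), with CpG47 just inside intron 3. CNS2, an enhancer with the hypersensitive site HSV that lies 3′ of exon 4, carries CpGs 48 to 64 (chr11:53418901-53419662), and the annotated gene (chr11:53416484-53432171) extends past it.

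Depth differed widely between the libraries. The median number of reads per CpG in first-cycle cells was 1026.5 and 5500.5 in replicates 1 and 2 of the TET line, and 1104 and 10328.5 in the libraries of the TDG line. In second-cycle cells it was 943 and 11646 in replicates 1 and 2 of the TET line and 1084.5 and 3900.5 in those of the TDG line. The replicate 1 libraries were thus the shallower ones in every group. The deposited counts stop at the highest value of a 16-bit number, which was reached at 5 CpGs of TET line first-cycle replicate 2, at 9 of TET line second-cycle replicate 2 and at 5 of TDG line second-cycle replicate 2. The CpGs at this limit are the 5 of exon 3 in each of these libraries and also CpGs 14 to 17 of CNS1 in TET line second-cycle replicate 2. The 95% Wilson interval of the level in 1 library was at most 12.98 points wide, at CpG25 of TDG line second-cycle replicate 1 (53.4%, 223 reads, 46.8% to 59.8%), and had a median width of 2.09 points, so the spread between libraries was mostly larger than the counting error. Such an interval holds the counting error alone, since reads of PCR products that carry no molecular identifier can be copies of each other. In each of the 8 libraries 99.7% to 99.8% of reads had T at cytosines outside CpGs, which shows near-complete conversion in both cycles. The pair of runs of 1 library differed by a median of 0.784 points per CpG, against 2.13 and 2.40 points between either run and replicate 1.

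**Figure D1:**
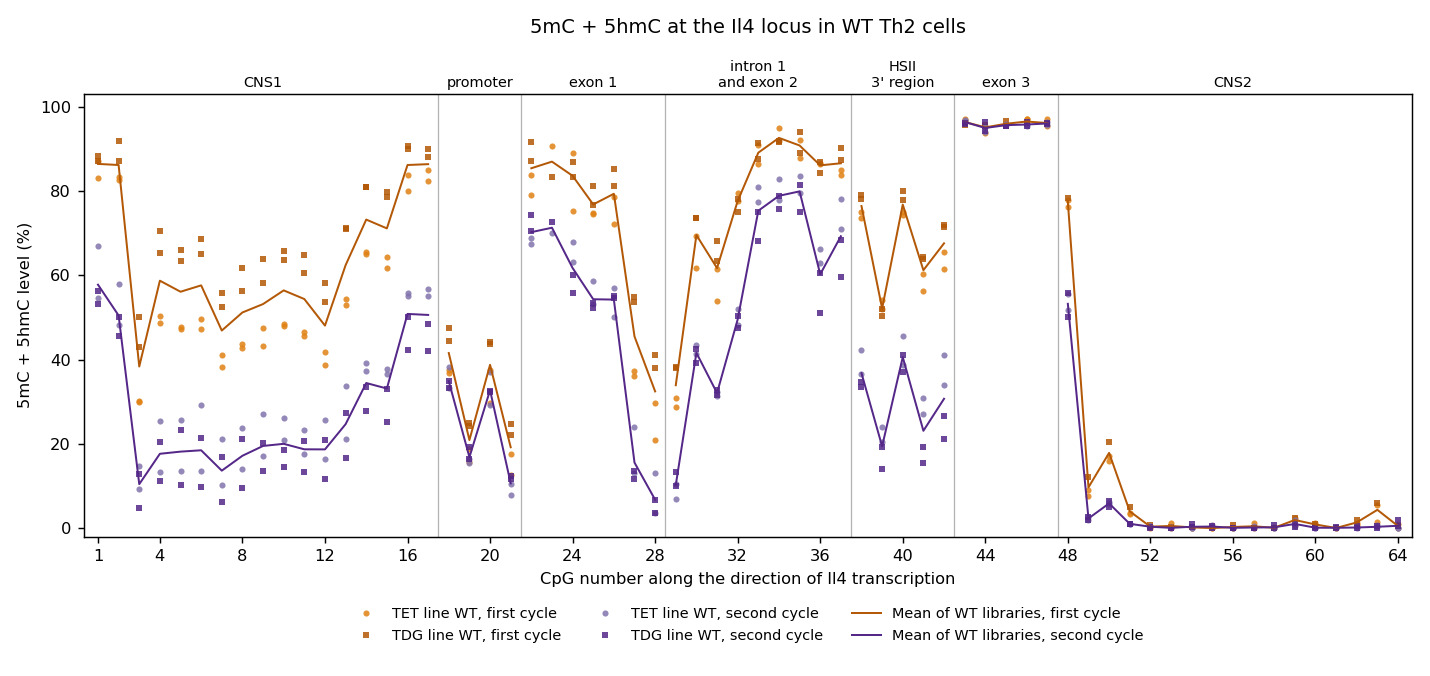
5mC + 5hmC level (%) of the 64 CpGs of the Il4 locus in the 8 WT libraries, with CpGs in order of transcription and regions separated by vertical lines. Points are single libraries with at least 100 reads at the CpG, and lines join the means of the libraries of a cycle. Second-cycle libraries lie below first-cycle libraries at every CpG of CNS1, while the points of both cycles coincide in exon 3.

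By tests of single CpGs, the locus lost 5mC + 5hmC between the cycles in CNS1, in the 3′ region of HSII, in exon 1 and in intron 1 with exon 2. The mean of each of these regions had an adjusted p of 0.05 in an exact permutation test, on the threshold and not under it. A loss of the promoter mean was not detected (-6.33 points ± 5.49, adjusted p = 0.1 in the same test), although CpG21 there was lower by the test of single CpGs. Exon 3 kept its level, and the largest change of a CpG there was -0.715 points. The comparison asks how far demethylation goes on when differentiated Th2 cells are stimulated again. Of the 46 CpGs with at least 100 reads in all 8 libraries, 38 were called lower (82.6%) and 0 higher. Called means an adjusted p under 0.05 in a quasi-binomial regression fitted to C against T reads. The fit held the BS-seq groups of naïve cells, of Th2 cells without a line name and of WT and mutant Th2 cells of both lines. Th2 groups labelled mock or sgGATA3 did not enter it. The smallest adjusted p was 8.3e-08, 38 CpGs had an unadjusted p under 0.05, and limma on log2 ratios of C to T called the same 38. The called CpGs were all 17 of CNS1, the 9 of intron 1 and exon 2, the 6 with enough reads in exon 1, the 5 in HSII and, of the 4 promoter CpGs, CpG21 alone. At the same 38 CpGs (82.6%) every second-cycle library was below every first-cycle library. In a bulk sample a lower level in each cell and a larger share of cells with an unmodified CpG cannot be told apart. The 17 CpGs of CNS2 were outside this comparison because TDG line first-cycle library 2 had no reads there, and CpG23 because replicate 1 libraries had under 100 reads. When only CpGs with at least 500 reads were tested, 19 of the 27 left were called.

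CNS1, an element between Il13 and Il4 that regulates both genes, was lower in every second-cycle library than in any first-cycle library. After the first cycle its mean over 17 CpGs was 56.1% in both TET line libraries and 69.7% and 70.5% in the TDG line libraries. After the second it was 34.8% and 26.8% in replicates 1 and 2 of the TET line and 28.9% and 21.3% in those of the TDG line. The ranges of the cycles did not overlap, and in second-cycle cells the deeper replicate 2 was the lower one in both lines. The mean went from 63.1% ± 8.06 (SD, n = 4 libraries) to 27.9% ± 5.55 (SD, n = 4) and fell by 35.2 points (± 9.79, SD of the difference). An exact permutation test of the 4 libraries against 4, two-sided, gave p = 0.0286, the smallest it can give, and the value adjusted over the 7 regions was 0.05, on the threshold and not under it.

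Within CNS1 the CpGs differed widely in their starting level and less in how much they lost. First-cycle means ran from 38.4% at CpG3 to 86.4% at CpG1, and second-cycle means from 10.48% at CpG3 to 57.8% at CpG1. CpG4 had the largest fall of the region. Its first-cycle levels were 48.6% and 50.4% in the TET line and 65.3% and 70.6% in the TDG line, and its second-cycle levels were 25.4% and 13.45%, and 20.6% and 11.3%. It fell by 41.1 points (± 5.69, SD within lines; adjusted p = 8.3e-08). CpG3 was the lowest CpG in both cycles and had the smallest fall in the mean of both lines. In the TDG line alone CpG1 fell less (-32.9 points, against -37.8 at CpG3). The levels of CpG3 were 30.3% and 30.0% (TET line) and 43.1% and 50.1% (TDG line) after the first cycle. After the second they were 14.8% and 9.41%, and 12.8% and 4.90%. CpG3 fell by 27.9 points (± 4.19, SD within lines, adjusted p = 5.49e-06 in the quasi-binomial model). The other CpGs that the study follows in this amplicon lay between these, with changes of -37.9 points at CpG5, -39.1 at CpG6, -33.2 at CpG7 and -34.0 at CpG8. The profile along CNS1 therefore kept its shape, with high shoulders at CpGs 1 and 2 and at CpGs 16 and 17, named after their values were seen, and a trough from CpG3 to CpG12.

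Exon 1, which encodes the start of the protein, lost less than CNS1 on average, but its CpGs were unlike each other. Its mean over the 6 CpGs tested was 65.4% and 59.9% in the TET line and 73.3% and 70.2% in the TDG line after the first cycle, and 48.3% and 41.8%, and 42.3% and 42.9%, after the second. It fell by 23.4 points (± 6.60), from 67.2% ± 5.88 (SD, n = 4) to 43.8% ± 3.00 (SD, n = 4), with an exact permutation p of 0.0286 (adjusted 0.05). No second-cycle library reached the lowest first-cycle library. The upstream CpGs 22, 25 and 26 started high and kept means above 50%, and CpGs 27 and 28 at the 3′ end of the exon ended low. CpG22, in the 5′ UTR, had the smallest fall, from 85.4% ± 5.35 (SD, n = 4) to 70.2% ± 2.91 (SD, n = 4), a change of -15.1 points (adjusted p = 0.000839). CpG25 changed by -22.5 points and CpG26 by -25.1 points. In the mean of both lines CpG27 had the largest fall, a change of -29.9 points (adjusted p = 4.16e-06). It went from 36.1% and 37.3% in the TET line and 53.8% and 54.9% in the TDG line to 23.95% and 13.2%, and 11.7% and 13.5%. In the TET line alone CpG26 fell furthest (-21.9 points, against -18.1 at CpG27). CpG28 went from 29.8% and 20.9% (TET line) and 41.2% and 38.04% (TDG line) to 13.2% and 3.62%, and 3.60% and 6.70%, and changed by -25.7 points (adjusted p = 0.000138).

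Intron 1 and exon 2 showed a similar split. The mean of the 9 CpGs was 74.0% and 75.9% in the TET line and 79.1% and 76.7% in the TDG line after the first cycle, and 57.9% and 56.2%, and 55.9% and 50.9%, after the second. It fell by 21.2 points (± 3.68), from 76.4% ± 2.12 (SD, n = 4) to 55.2% ± 3.01 (SD, n = 4; exact permutation p = 0.0286, adjusted 0.05). CpG29, the first of the intron, had 28.9% and 30.8% in the TET line and 38.2% and 37.9% in the TDG line, and went to 7.07% and 10.5%, and 13.4% and 10.1%, a change of -23.7 points (adjusted p = 4.16e-06). It thus joined CpGs 27 and 28 in a stretch that was low in second-cycle cells across the boundary of exon 1 and intron 1. CpG30 changed by -27.9 points. CpG31 had the largest fall of the region in the mean of both lines, a change of -29.6 points (adjusted p = 1.02e-06). It went from 61.7% ± 5.87 (SD, n = 4) to 32.1% ± 0.61 (SD, n = 4). In the TET line alone CpG32, named after its values were seen, fell further (-28.5 points, against -25.7 at CpG31). CpG35, in the coding part of exon 2, had the smallest fall, from 90.8% ± 2.83 (SD, n = 4) to 79.9% ± 3.58 (SD, n = 4), a change of -10.9 points (adjusted p = 0.000982).

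The stretch around the exon 1 splice site and the start of intron 1 is printed because it holds these low CpGs next to the higher CpGs 30 and 31. It lies at chr11:53431873-53432012 on the minus strand of mm9, is given 5′ to 3′ with its 5 CpGs in capitals, and the 5′ stretch of CNS1 with CpGs 3 to 8 (chr11:53440569-53440673, minus strand) is set beside it.
Exon 1 and intron 1, CpGs 27 to 31: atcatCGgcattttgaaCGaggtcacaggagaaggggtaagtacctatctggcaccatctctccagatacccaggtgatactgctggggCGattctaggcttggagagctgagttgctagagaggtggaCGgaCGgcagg
CNS1, CpGs 3 to 8: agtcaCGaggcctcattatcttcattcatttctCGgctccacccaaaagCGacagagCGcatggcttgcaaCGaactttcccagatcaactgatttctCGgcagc

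The 3′ region of HSII, in intron 2, also lost 5mC + 5hmC, and a difference from the fall of CNS1 was not detected. Its mean over 5 CpGs was 65.9% and 63.6% in the TET line and 69.0% and 68.8% in the TDG line after the first cycle, and 36.7% and 31.4%, and 28.2% and 24.3%, after the second. It fell by 36.7 points (± 5.86), from 66.8% ± 2.56 (SD, n = 4) to 30.1% ± 5.27 (SD, n = 4; exact permutation p = 0.0286, adjusted 0.05), and the libraries of the cycles were far apart. All 5 CpGs were called lower, but the order of their falls differed between the lines. CpG42, named after its values were seen, had the smallest fall in the TET line (-25.9 points) and the largest in the TDG line (-47.8 points). This difference between the lines was not called (adjusted p = 0.0817 in the quasi-binomial model). In the mean of both lines CpG38 had the largest fall, from 76.4% ± 2.59 (SD, n = 4) to 36.8% ± 3.82 (SD, n = 4), a change of -39.6 points (adjusted p = 8.3e-08). CpG39 had the smallest, from 52.1% ± 1.57 (SD, n = 4) to 19.5% ± 4.11 (SD, n = 4), a change of -32.7 points (adjusted p = 2.24e-07).

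The promoter, already low after the first cycle, changed less than CNS1 in both lines. Its mean over 4 CpGs was 23.7% and 27.9% in the TET line and 35.2% and 33.8% in the TDG line, and after the second cycle 24.9% and 22.2%, and 24.7% and 23.4%. The cycles overlapped in the TET line libraries, and the mean difference of -6.33 points (± 5.49) from 30.1% ± 5.34 (SD, n = 4) to 23.8% ± 1.25 (SD, n = 4) did not pass the exact permutation test (p = 0.0857, adjusted 0.1). The TDG line alone changed by -10.4 points (± 1.32), with CpGs 18, 20 and 21 called lower (adjusted p = 0.0452, 0.046 and 0.0155 in the quasi-binomial model), and kept 69.8% of its level. CpGs 18 and 20 were not called by limma or with any single TDG line library left out, and CpG21 not without first-cycle replicate 1 or second-cycle replicate 2 of that line. The TET line changed by -2.25 points (± 3.50), kept 91.3% and had 0 of 4 CpGs called. A difference in change between the lines was not detected at any promoter CpG (unadjusted p from 0.166 to 0.584 in the same model). CpG21, the one nearest the transcription start, was called lower, with a change of -8.57 points (± 2.19, SD within lines, adjusted p = 0.00861 in the quasi-binomial model). CpG21 went from 12.6% and 17.5% in the TET line and 24.7% and 22.2% in the TDG line to 7.96% and 10.6%, and 12.4% and 11.7%. Without TET line first-cycle replicate 2 its change was -7.33 points and not called (adjusted p = 0.0624), and it is under the alternative minimum of 10 points. CpG18 differed by -6.68 points (adjusted p = 0.108), CpG19 by -4.06 points (adjusted p = 0.234) and CpG20 by -6.01 points (adjusted p = 0.137), and none of these 3 was called. At CpG20 the TET line gave 29.7% and 37.4% before and 37.0% and 29.4% after, and the TDG line 44.3% and 43.7% before and 32.2% and 32.5% after.

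Exon 3, a coding exon inside the same gene, stayed methylated and serves as the level measured the same way in the same libraries. Its mean over 5 CpGs was 96.2% and 96.1% in the TET line and 95.97% and 95.7% in the TDG line after the first cycle, and 95.6% and 95.9%, and 95.98% and 95.4%, after the second. The difference was -0.264 points (± 0.347; exact permutation p = 0.2, adjusted 0.2). None of its 5 CpGs was called by the quasi-binomial model or limma, and 0 had an unadjusted p under 0.05 in the model. The differences were -0.0351 points at CpG43, -0.134 at CpG44, -0.334 at CpG45, -0.715 at CpG46 and -0.101 at CpG47, with adjusted p-values from 0.663 to 0.964. The sequences of HSII (3′ region, chr11:53430169-53430327), exon 3 (chr11:53427394-53427518) and the promoter (chr11:53432416-53432521), all on the minus strand of mm9 with CpGs in capitals, show the CpGs with one of the largest losses, with none called and with the lowest first-cycle levels among these regions.
HSII 3′ region, CpGs 38 to 42: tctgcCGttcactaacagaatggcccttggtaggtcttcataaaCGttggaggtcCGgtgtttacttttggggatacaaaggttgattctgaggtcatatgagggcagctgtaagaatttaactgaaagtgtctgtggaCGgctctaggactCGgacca
Exon 3, CpGs 43 to 47: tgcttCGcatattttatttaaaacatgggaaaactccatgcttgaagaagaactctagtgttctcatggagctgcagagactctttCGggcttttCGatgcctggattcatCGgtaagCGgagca
Promoter, CpGs 18 to 21: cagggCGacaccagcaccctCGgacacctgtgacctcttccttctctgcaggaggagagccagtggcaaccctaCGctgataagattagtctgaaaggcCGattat

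CNS2, the 3′ enhancer, had little 5mC + 5hmC over most of its CpGs before the second cycle began. CpGs 48 to 51 together averaged 26.1% and 26.7% in the TET line and 29.02% in the 1 covered TDG line library after the first cycle, and 15.2% and 16.3%, and 16.5% and 14.6%, after the second. CpGs 52 to 62 averaged 0.449% to 0.763% in the first-cycle libraries and 0.247% to 0.365% in the second-cycle libraries, where the latter are close to the 0.205% to 0.260% of C read at cytosines outside CpGs in the 8 libraries and so near the limit of conversion. CpG63, named after its values were seen, was higher than these, with 1.58% and 5.62% in the TET line and 5.97% in the TDG line after the first cycle, and 0.709% and 0.2195%, and 0.5495% and 0%, after the second. Over all 17 CpGs the mean was 7.10% ± 0.591 (SD, n = 3) and then 3.94% ± 0.24 (SD, n = 4), so that it differed by -3.16 points (± 0.638; exact permutation p = 0.0571, the smallest that 3 libraries against 4 allow, adjusted 0.08). A mean weighted by reads gave -7.99 points.

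With all 8 libraries kept, single CpGs of CNS2 were tested in the TET line alone, and leaving out TDG line first-cycle library 2 brought them into the comparison of both lines, where 43 of 63 CpGs were then called. In the TET line 3 of the 17 were called lower and 0 higher. CpG48 at the 5′ edge went from 76.1% and 78.0% to 51.7% and 55.5%, a change of -23.4 points (± 3.00; adjusted p = 0.000524), while in the TDG line it had 78.3% in the covered first-cycle library and 55.7% and 50.1% after the second cycle. CpGs 49 and 50, named after their values were seen, changed by -6.15 points (adjusted p = 0.0225) and -10.6 points (adjusted p = 0.00752). CpG63 changed by -3.13 points and was not called (p = 0.037 in the quasi-binomial model, adjusted 0.0568). CpG55 did not fall. It was 0% in both first-cycle TET line libraries, where counting error allows up to 0.564% and 0.278% (3 divided by the reads), and 0.796% and 0.322% after the second cycle. This difference of 0.559 points was not called by the quasi-binomial model (adjusted p = 0.356) but was called higher by limma (adjusted p = 0.0126). The printed sequence of CpGs 48 to 51 (chr11:53419480-53419641, minus strand, mm9, CpGs in capitals) covers the edge where levels drop from CpG48 to CpG51.
CNS2, CpGs 48 to 51: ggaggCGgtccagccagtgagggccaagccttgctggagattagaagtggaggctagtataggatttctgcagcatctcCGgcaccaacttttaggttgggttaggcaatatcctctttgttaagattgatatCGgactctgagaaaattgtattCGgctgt

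**Figure D2:**
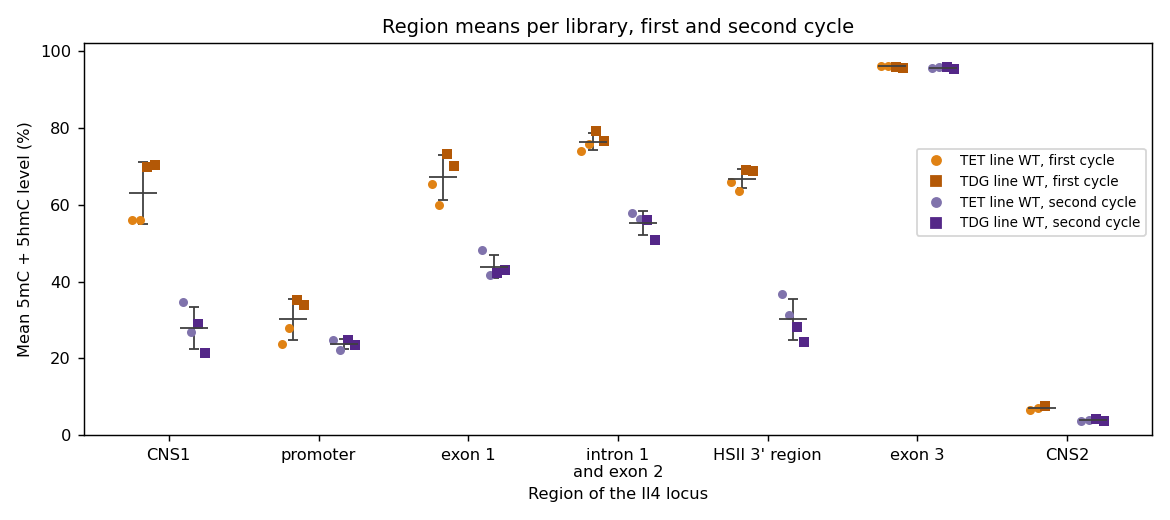
Mean 5mC + 5hmC level (%) of each region in each WT library after the first (left) and second (right) cycle, with circles for the TET line and squares for the TDG line. Horizontal marks and bars are the mean and SD over libraries (n = 4, and n = 3 for first-cycle CNS2), and the cycles are apart in HSII, CNS1, CNS2, exon 1 and intron 1 with exon 2 but overlap in the promoter and exon 3.

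Whether CNS1 changed by another amount than each other region was tested within libraries, as the difference between both region means in the same library, 4 libraries against 4. CNS1 fell further than the promoter, with a change in the difference of -28.8 points (± 6.08), than exon 1 with -11.8 points (± 5.48), than intron 1 and exon 2 with -14.0 points (± 7.20) and than exon 3 with -34.9 points (± 9.93). Each had an exact permutation p of 0.0286, the smallest possible, and an adjusted p of 0.0357 over the 5 contrasts. This test, like that of the region means, exchanged libraries across the lines, although CNS1 began at 56.1% in the TET line and 70.1% in the TDG line. These 4 calls need all 8 libraries: with any one left out, the exact permutation test of 3 libraries against 4 cannot go below p = 0.0571, and each adjusted p became 0.0714 with the sign of the change kept. In the contrast with the promoter the sign follows from the starting levels, since the promoter mean of 30.1% after the first cycle was smaller than the fall of CNS1, and it says nothing of the share lost. For the 3′ region of HSII the contrast was 1.504 points (± 6.18; exact permutation p = 0.6, adjusted 0.6), so a difference from CNS1 was not detected, and its sign turned without TET line first-cycle replicate 1 (-0.503 points) and at 500 reads (-0.269 points). Because exon 3 is read in the same libraries and stayed near 96%, the loss in CNS1 is as large relative to exon 3 as it is alone. The contrast with exon 3 thus nearly repeats the change of CNS1 itself (-35.2 points), whose adjusted permutation p over the 7 regions was 0.05. The contrast with exon 1 was -11.6 points and missed the threshold (adjusted p = 0.0714) when CpGs were weighted by reads.

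As a share of the first-cycle level, which is a description with no test, CNS1 kept 44.3%, the 3′ region of HSII 45.1%, CNS2 55.5%, exon 1 65.2%, intron 1 and exon 2 72.3%, the promoter 79.0% and exon 3 99.7%. Over the 45 CpGs that had at least 20% after the first cycle and 100 reads in all libraries, the median share kept was 58.6%. The lowest was 20.9%, at CpG28, followed by 27.3% at CpG3, and the highest was 99.96%, at CpG43. In CNS1 the share rose from 27.3% at CpG3 to 66.9% at CpG1, in exon 1 from 20.9% at CpG28 to 82.3% at CpG22, and in intron 1 and exon 2 from 30.2% at CpG29 to 88.0% at CpG35. In these 3 regions the share thus varied widely between CpGs, in contrast to exon 3 (99.3% to 99.96%) and less so HSII (37.3% to 52.9%). In the promoter, CpG18, CpG19 and CpG20 kept 83.9%, 80.6% and 84.5% of first-cycle means of 41.6%, 20.9% and 38.8%, and CpG21, which at 19.2% was below the 20% minimum, kept 55.4%. These shares and their order are of the mean of both lines. CNS1 kept 54.8% in the TET line and 35.8% in the TDG line, and the 3′ region of HSII 52.6% and 38.05%. In the TET line CpG29 kept the least (29.4%, against 33.3% at CpG28), and in the TDG line CpG28 did.

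**Figure D3:**
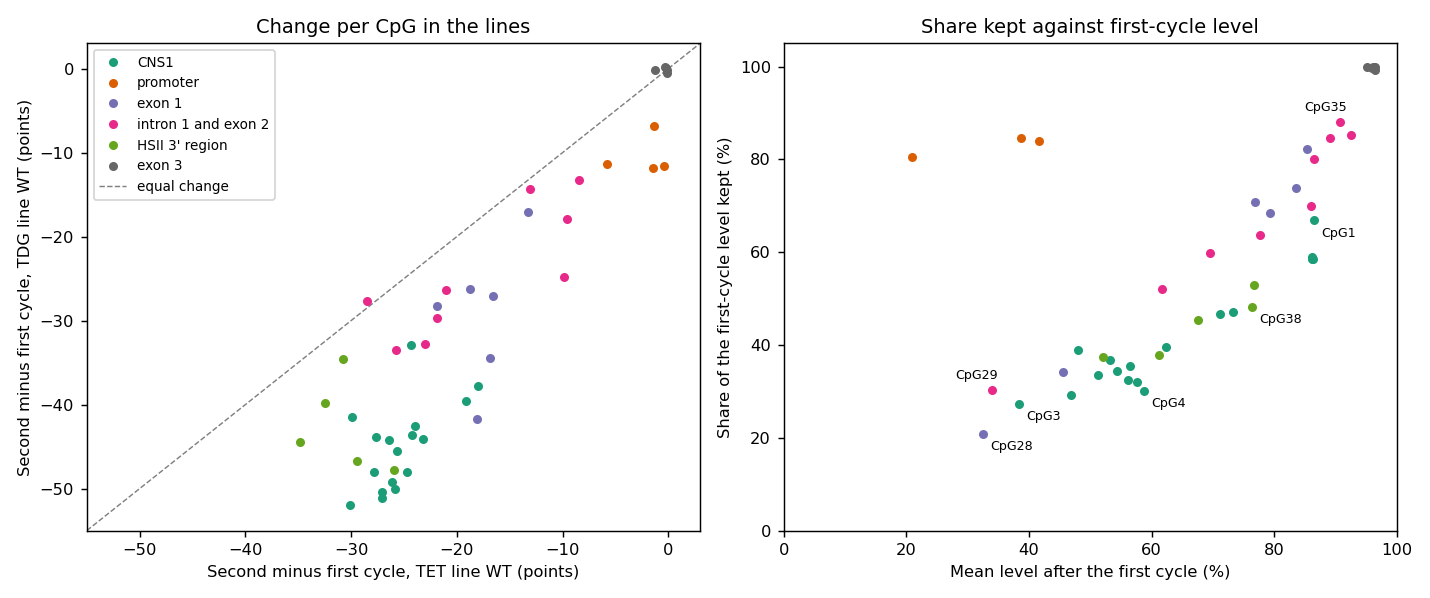
Left, change of each CpG between the cycles in the TET line (x axis) and TDG line (y axis), in percentage points, for the 46 CpGs with at least 100 reads in all 8 WT libraries. Right, share of the first-cycle level kept (%) against the mean first-cycle level (%) of both lines for the 45 of these CpGs at 20% or more, coloured by region as on the left. At 42 of 46 CpGs the TDG line fell further (below the dashed line), and CpGs 18 and 20 of the promoter keep over 80%, whereas CpG3 of CNS1, at a similar first-cycle level, keeps 27.3%.

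Taken alone, each line had lower levels after the second cycle. In the TET line 40 of the 63 CpGs tested were called lower (63.5%), none higher (adjusted p down to 0.000101), among them all CpGs of CNS1, HSII and intron 1 with exon 2, the 6 tested in exon 1 and 3 in CNS2, but 0 of the 4 in the promoter (0 with an unadjusted p under 0.05). In the TDG line 40 of 46 were called lower (87.0%), none higher (adjusted p down to 4.32e-07), at every CpG tested of CNS1, HSII, exon 1 and intron 1 with exon 2 and at 3 of the 4 promoter CpGs, CpGs 18, 20 and 21, while CNS2 was not among the CpGs tested. Limma called 37 CpGs in the TET line, 36 lower and CpG55 higher, and 38 in the TDG line. The lines share no library, and across the 46 CpGs their changes had a Pearson r of 0.907 and a Spearman rho of 0.833, given as a description because CpGs of 1 amplicon share reads. Without exon 3 these were 0.846 and 0.768 (41 CpGs), and within CNS1 0.568 and 0.571 (17 CpGs). The CpGs that changed most in one line thus tended to do so in the other.

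The fall was nonetheless greater in the TDG line at 42 of 46 CpGs, including all 17 of CNS1, with a median change of -34.0 points against -22.5 points in the TET line. The CNS1 mean changed by -45.0 points (± 5.37) in the TDG line and -25.4 points (± 5.66) in the TET line, the HSII mean by -42.7 (± 2.77) and -30.7 (± 4.08), exon 1 by -29.2 (± 2.26) and -17.6 (± 6.00), intron 1 and exon 2 by -24.5 (± 3.96) and -17.9 (± 1.75), and the promoter by -10.4 (± 1.32) and -2.25 (± 3.50). Within 1 line an exact permutation test of 2 libraries against 2 cannot reach the threshold. The test of the difference between the lines called 0 of 46 CpGs (0%) in the quasi-binomial model (smallest adjusted p 0.067), although before adjustment 17 were under 0.05, 13 of them in CNS1. Limma also called 0, with 14 under 0.05. The largest difference between the lines was 24.3 points, at CpG15, chosen after its values were seen, where the TET line changed by -25.8 points and the TDG line by -50.1 points. The result rested on single libraries: without TDG line second-cycle replicate 1 the lines differed at 14 CpGs, and without TET line second-cycle replicate 2 at 13. With at least 500 reads, 3 of 27 CpGs were called, CpGs 14, 15 and 16, named after their values were seen.

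In CNS1, exon 1 and the promoter the means of the lines were further apart after the first cycle than after the second, and in HSII and in intron 1 with exon 2 they were not. After the first cycle the TET line was below the TDG line in CNS1 (56.1% ± 0.0276 and 70.1% ± 0.522; SD, n = 2 each) and in the promoter (25.8% ± 2.94 and 34.5% ± 0.978), and after the second it was at 30.8% ± 5.66 against 25.1% ± 5.35 in CNS1 and at 23.5% ± 1.90 against 24.1% ± 0.887 in the promoter. Exon 1 went from 62.6% ± 3.89 (TET line) and 71.8% ± 2.22 (TDG line) to 45.03% ± 4.57 and 42.6% ± 0.412. In the 3′ region of HSII the means were 64.8% ± 1.60 (TET line) and 68.9% ± 0.176 (TDG line) after the first cycle and 34.1% ± 3.76 and 26.2% ± 2.76 after the second, with the TET line then the higher one. In first-cycle cells the quasi-binomial model called 0 of 46 CpGs between the lines (0%), the smallest adjusted p being 0.0545, and 15 CpGs had an unadjusted p under 0.05, of which 14 were in CNS1, and limma called 0 with 11. The TET line was the lower one at 39 of the 46. This count depended on the fit, since 23 CpGs were called when only these groups entered it and 7 of 38 with at least 500 reads. In second-cycle cells, where the TET line was the higher one at 48 of 63 CpGs, 0 of 63 were called (0%; smallest adjusted p 0.758), 4 had an unadjusted p under 0.05, and limma called 0 with 2. These 4 were CpGs 17, 37, 41 and 42, and limma's pair were CpGs 54 and 64, all named after their values were seen. A separate set of WT Th2 libraries of the first cycle, which carries no line name, had 79.0% ± 6.61 (SD, n = 3) in CNS1, above both lines. Naïve cells had 92.7% ± 0.55 (SD, n = 3).

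The same cycles in mutant cells of the lines give the setting for the WT change. In TET iTKO cells (inducible deletion of Tet1, Tet2 and Tet3; 4 samples from 4 libraries) the CNS1 mean changed by -1.68 points (± 0.387), exon 1 by -2.42 points (± 5.32) and the 3′ region of HSII by -34.9 points (± 3.54), beside -25.4, -17.6 and -30.7 points in the WT cells of that line. The iTKO promoter went up by 9.17 points (± 5.59) where the WT change was -2.25 points, and the CNS1 change of iTKO cells started from 90.5%, against 56.1% in WT cells. The WT change minus the iTKO change was called at 0 of 60 CpGs (0%) by the quasi-binomial model, which works on the logit scale, with a smallest adjusted p of 0.168. There were 15 CpGs with an unadjusted p under 0.05, 12 of them in CNS1, and limma called 0 with 18 under 0.05. With 2 libraries per group, these missing calls do not show that the WT and iTKO changes were equal. Without TET iTKO first-cycle replicate 2, CpG28 was called (adjusted p = 0.0387; over all alternatives the smallest adjusted p ran from 0.0387 to 0.457). In TDG iKO cells (inducible deletion of Tdg; 5 samples from 4 libraries) CNS1 changed by -43.6 points (± 4.43), exon 1 by -27.4 points (± 4.63) and HSII by -39.1 points (± 2.28), beside -45.0, -29.2 and -42.7 points in WT cells. The promoter changed by -3.48 points (± 3.01) in TDG iKO cells and by -10.4 points (± 1.32) in WT cells of that line. Between these 0 of 46 CpGs were called (0%; smallest adjusted p 0.989), 0 had an unadjusted p under 0.05 and limma gave 0 and 0. The differences between WT and TDG iKO changes ran from -12.5 to 8.88 points with a median of -2.31 points, and the missing calls do not show that the changes were equal.

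The sequences were searched on both strands for motifs of factors that act at this locus in T cells: GATA (GATA3), TTC and GAA with 4 bases between them (STAT6) and TGANTCA (BATF and other AP-1 factors). GATA had 18 matches, in 8 of the 11 amplicons: 1 in CNS1, 2 in the promoter, 3 in exon 1, 3 in intron 1 and exon 2, 1 in the 3′ region of HSII, 0 in exon 3 and 8 in CNS2. Of windows of 202 bp along chromosome 11, 64.4% hold GATA. The STAT6 motif had 1 match, in CNS2 (5.46% of windows), and TGANTCA had 0 (5.90% of windows). The 10 tested CpGs within 20 bp of a GATA had a median change of -23.1 points, and the 31 farther from one, in the regions that hold a GATA, had -33.2 points. Across these 41 CpGs the distance to GATA and the change had a Spearman rho of -0.537, and across all 46 the distance to the nearest CpG and the change had -0.113. The regions were unevenly spread over these sets. Most CpGs of CNS1, a region of large falls, were in the farther set, and CpGs 20 and 21 of the promoter were in the nearer one. Distance to GATA and region can thus not be told apart here. CpGs of a region share reads and position, so these are descriptions, and a match of letters is not a binding site.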

How the data were processed

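The authors amplified the Il4 locus from bisulfite-treated genomic DNA, mapped paired-end reads to mm9 with BSMAP (named in the submitters' processing notes, no version given) and deposited, per cytosine, raw counts for C reads and for the sum of C and T reads. The fraction of C that the authors also deposited served only to check the counts. The mapping settings in the methods include a quality threshold for trimming; duplicate handling is not stated, and counts stop at a 16-bit limit.

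Amplicons were placed by matching the primers to the converted mm9 sequence, and levels were computed from counts of the amplified strand. CpGs with at least 100 reads in each compared library entered a quasi-binomial regression (22 libraries of 10 groups), with weights that allow libraries to vary by 1 variance common to every CpG, with dispersions moderated by squeezeVar of limma 3.58.1 in R 4.3.3 and not below 1, an F-test per contrast (two-sided) and Benjamini-Hochberg adjustment over its CpGs. The pooled contrast is the mean of both lines on the logit scale. Differences are of group means, and their SDs combine those of the groups. For region means of both lines, these are the SDs over all libraries of each cycle. For CpGs they are the SDs within each line and cycle at the weights of the contrast. The SD of a pooled CpG difference thus leaves out the spread between the lines. Region means, unweighted over CpGs, were tested with exact two-sided permutation in Python 3.11.15 and scipy 1.17.1. The model was tested on simulated counts with the real read numbers.

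CpGs were named by rule: largest and smallest fall per region, tested but not called, CpGs 3 to 8 and 25 to 31, and the extremes of the share kept. The members and lists were chosen with earlier results of these data known. Alternatives were 20 or 500 reads, limma, only the compared groups, a difference of at least 10 points, each library left out, the replicate number as a block, pooled lines, separate runs, weighting by reads and correction for conversion.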

Additional observations from a re-analysis of the deposited data

Results flagged for a closer look

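In second-cycle cells 1 library stood apart from the other WT libraries in exon 1. TET line replicate 1 had an exon 1 mean of 48.3%, against 41.8% to 42.9% in the other 3, and 23.95% at CpG27, against 11.7% to 13.5%. In each case its gap to the nearest library, 0.831 and 0.85 of the whole range, was above Dixon's 95% critical value for 4 libraries. Of the 67 groups of 4 libraries examined (region means and named CpGs), 2 had such a library, and both involve the same library and exon. Chance flags about 1 in 20 groups. At the exon 1 CpGs tested this library had 597 to 827 reads, and TDG line replicate 1, with 222 to 256, did not stand apart.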

How the results depend on the processing

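The count of CpGs lower after the second cycle was 37 to 43 under 15 of 16 alternatives, and no called CpG changed sign under any of them. Of the CpGs not called, CpG43, CpG44 and CpG47 of exon 3 did, at -0.172 to 0.102, -0.631 to 0.362 and -0.497 to 0.2945 points with single libraries left out and, for CpG43, 0.0106 with separate runs. With at least 500 reads 19 of 27 CpGs were called, and 21 of 27 in the TDG line, because fewer CpGs were tested. For the difference between the lines, 500 reads gave 3 calls, and leaving out single libraries gave 0 to 14. For the lines after the first cycle, 500 reads gave 7 calls and a fit of only these groups 23, and the cause was not tested. The WT change minus that in TET iTKO cells had 0 to 1 calls when single libraries were left out. A leave-out that reduces a group to 1 library assumes that it varies like the other groups.

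The replicate block pairs libraries by a number that the labels do not tie to an animal, and was fitted to the compared groups only. With it the pooled contrast called 38 CpGs (smallest adjusted p 0.000372) and the TDG line 38. The TET line called 0 (smallest adjusted p 0.11, 28 CpGs under 0.05 before adjustment). Fits of only the compared groups without the block called 38 CpGs in the pooled contrast, 40 in the TDG line and 40 in the TET line. Libraries with 1 number in paired cycles had deviations that correlated at 0.0387 over both lines, 0.16 in the TET line and -0.133 in the TDG line.

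Weighting by reads moved the CNS2 change to -7.99 points and left the contrast of CNS1 with exon 1, at -11.6 points, above the threshold (adjusted p 0.0714). Counting the runs of 1 library as separate replicates raises the number of replicates without an independent library. It brought the adjusted p of CNS1 (-36.6 points), exon 1 (-23.96), intron 1 and exon 2 (-21.3) and HSII (-37.1) to 0.0278. With single libraries left out, the contrasts of CNS1 had an adjusted p of 0.0714, because 3 libraries against 4 cannot reach the threshold, at changes of -30.8 to -26.8 points (promoter), -13.5 to -9.92 (exon 1), -16.1 to -11.6 (intron 1 and exon 2) and -37.3 to -32.4 (exon 3). The contrast with HSII, not past the threshold, ran from -0.503 to 3.31 points and was -0.269 at 500 reads. All other region values kept direction and side of the threshold. In the TDG line CNS2 is limited to 1 first-cycle library, since the other has no reads there, and CpG23 is limited by depth.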
